A study of Mus musculus with 14 samples.

Results

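The region described here is the middle of the Stag1 gene body on mouse chromosome 9, from 100660001 to 100860000 (GRCm38). It was taken as a fixed interval of 200 kb, and its members are the restriction fragment ends in it that were joined to a bait. Of 116782 partner ends seen over all libraries, 749 lay in the segment, and 8286 lay between 10 kb and 1 Mb from any of the baits. The quantity described is the segment share, the percentage of region UMIs that lay in the segment. A UMI stands for 1 ligated molecule, and region UMIs are those whose partner end is 10 kb to 1 Mb away from the bait on either side.

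Contacts were measured by UMI-4C, in which crosslinked chromatin is cut, ligated and sheared, and the molecules joined to 1 chosen site, the bait, are sequenced and counted once each. The compared cells were mouse embryonic stem cells (ESC) in 2i medium with LIF, which keeps them naive, and neural stem cells (NSC) maintained with the growth factors EGF and FGF, and no group carried a mutation or a further treatment per the labels. There were 14 libraries, from Nanog bait 1 (4 ESC, 3 NSC), Nanog bait 2 (3 ESC, 1 NSC) and the CTCF bait (2 ESC, 1 NSC). In bait 1, 3 pairs of like libraries had 82.6% to 85.7% of their ends on other chromosomes in common and were averaged. This left 11 samples, treated as independent, with 2 ESC and 2 NSC samples for bait 1. Some libraries of different samples still shared 1.92% to 12.9% of such ends, as described below. The comparison asked how the contacts of this part of Stag1 were distributed in each cell type. The labels do not say that the libraries came from separate cultures, and libraries of different baits may share a culture, so the p-values measure only the spread between these samples. UMI-4C reads no expression, so the labelled cell types were not checked against marker genes. A share measured over many cells cannot tell a contact made in more cells from a contact made more often in each cell.

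Stag1 encodes a STAG subunit of cohesin, the ring-shaped complex that holds sister chromatids together and extrudes chromatin loops. CTCF is the zinc finger protein that stops loop extrusion at its binding sites in an orientation-dependent way, and NANOG is a transcription factor of naive pluripotency. Contact frequency along a chromosome falls with distance from a bait, so a segment is best compared between cell types at the same bait.

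The segment lies wholly inside Stag1 (ENSMUSG00000037286.15, 100597798 to 100959375, plus strand) and makes up 55.3% of its length. It holds exons 2 to 13 of the 33 exons of the canonical transcript Stag1-201, with the introns between them, and neither the first exon nor the 3′ end of the gene. Also annotated in it are Gm37204 (100665839 to 100669799) and Gm38297 (100703213 to 100704269), both entries that await experimental support. Bait 1, at 100619989, was 40.01 kb from the near border of the segment and 240 kb from the far border. Bait 2, at 100641698, was 18.3 kb and 218 kb away, and the CTCF bait, at 100455377, was 205 kb and 405 kb away. All baits lay on the side of lower coordinates.

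The chromatin was cut at GATC, and every segment end in every library (100%) lay at a GATC of GRCm38. The 401 GATC sites of the segment give 802 possible ends, of which 93.4% were seen in at least 1 library. The 5 ends with the highest mean share over the ESC groups of the 3 baits are printed to show what a contact in the segment is read from. Each is given on the plus strand of GRCm38, 5′ to 3′, as 30 bases of its fragment, with the cut site in capitals.
End 1, chr9:100661535-100661564: gacaagactagccttggtcttagaatGATC
End 2, chr9:100662788-100662817: tttagctttttttattagtttgcactGATC
End 3, chr9:100665059-100665088: GATCtttctgaaaaggcagaataagctttt
End 4, chr9:100669323-100669352: GATCaggatgaagtctcaatacaatgaatg
End 5, chr9:100705079-100705108: GATCataagtgtgatggattgatatttcat
Ends 1 to 4 are intronic and lie between 35828 and 43591 bp before exon 2, with end 4 inside Gm37204. End 5 lies 72 bp from exon 2, on a fragment of 930 bp that contains it.

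The 5 ends were chosen by their measured share in ESC, so their values are a description. Summed over the 14 libraries they held between 49 and 58 UMIs each, and 58 was the highest sum of any end in the segment. The mean shares of ends 1 to 5 over the baits were 0.0597%, 0.0612%, 0.0610%, 0.0633% and 0.0604% in ESC. In NSC they were 0.0514%, 0.0616%, 0.0361%, 0.0346% and 0.0346%, so end 2 was not higher in ESC. For end 5 the bait 1 ESC libraries held 4, 5, 7 and 4 UMIs, and the NSC libraries held 1, 2 and 1. From bait 2, end 5 held 6, 3 and 0 UMIs in ESC and 3 in NSC. The CTCF bait libraries gave it 9 and 2 UMIs in ESC and 2 in NSC. The counts of a single end are thus of a few molecules per library. For that reason, the comparisons below sum ends over windows or over the whole segment.

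The segment was also searched on both strands for CNAGGGGGC, letters from the core of the CTCF motif. It held 1 match, on the minus strand in an intron of Stag1, printed here on its own strand with 8 flanking bases on each side and the match in capitals.
Match 1, chr9:100818175-100818199, minus strand: tagtagaaCAAGGGGGCatgttcta
Of the 84 windows of 20 kb tested between the cell types, which are those lying wholly within the region of all 3 baits, 22 (26.2%) and in the segment 1 of 10 (10%) held a match. Within 10 kb of the CTCF bait there was 1 match, on the plus strand, within 10 kb of bait 1 there was 1, on the minus strand, and near bait 2 there were 0. A match describes letters in the sequence and does not show that the site is bound. Only this string was searched, so other forms of the motif were not counted.

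The segment took a larger share of the contacts in ESC than in NSC at each bait, in every library. From bait 1 it held 18.6%, 20.5%, 20.9% and 18.8% of region UMIs in ESC replicates 1 to 4 and 14.1%, 13.8% and 14.3% in NSC replicates 1 to 3. From bait 2 it held 19.4%, 20.7% and 21.5% in the ESC libraries, against 16.2% in NSC. The share from the CTCF bait was 12.5% and 12.4% in the ESC libraries and 9.74% in NSC. The lowest ESC library was above the highest NSC library for every bait.

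**Figure D1:**
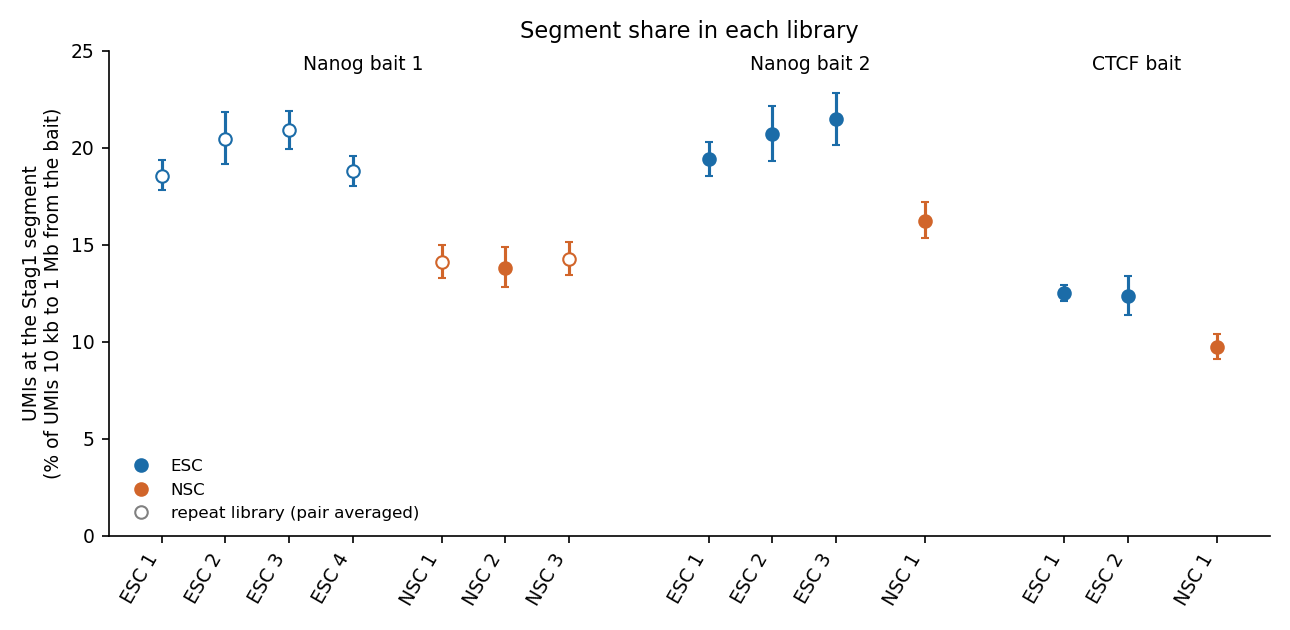
Segment share in each of the 14 libraries, as a percentage of the UMIs 10 kb to 1 Mb from the bait, with 95% Wilson intervals that cover counting error only. Open circles are repeat libraries, which were averaged in pairs; every ESC point lies above the NSC points of its bait.

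With repeat libraries averaged, ESC had a bait 1 mean of 19.7% ± 1.42 (SD, n = 2) and NSC one of 14.01% ± 0.273 (SD, n = 2). The difference was 5.67 percentage points or 1.41-fold. Bait 2 had means of 20.5% ± 1.04 (SD, n = 3) and 16.2% (n = 1), a difference of 4.29 points or 1.26-fold. Those of the CTCF bait were 12.4% ± 0.124 (SD, n = 2) and 9.74% (n = 1), a difference of 2.70 points or 1.28-fold. Within a single bait a two-sided exact permutation test cannot go below p = 0.333 in bait 1, 0.25 in bait 2 and 0.333 in the CTCF bait, and it gave those values. Permuting cell type within each bait over all 72 arrangements, the mean difference of 4.22 points gave an exact p = 0.0139, the smallest these samples allow. Adjusted over the 4 segment measures tested in this way (Benjamini-Hochberg), this exact p was 0.0556. The earlier results of these data were known when the segment was chosen, so the test is no independent evidence of the direction.

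Some libraries of the same bait shared 1.92% to 12.9% of their ends on other chromosomes and are called linked, while the remaining pairs of libraries shared 0% to 0.641%. Between the most closely linked samples, the ESC share was higher by 4.48 and 6.87 points for bait 1, by 3.17 points for bait 2 and by 2.79 points for the CTCF bait. All 4 linked pairs therefore had the direction of the means, with an exact sign-flip p = 0.125, the smallest that 4 pairs allow. When every fragment end was counted once, whatever its number of UMIs, the difference over the baits was 3.65 points and the exact permutation p was 0.0556. The CTCF bait difference was then 1.39 points, beside 2.70 with UMIs counted, and its groups overlapped, with 10.6% and 14.2% of ends in the ESC libraries and 11.03% in the NSC library. The bait 2 difference was 5.60 points with each end counted once. With a region of 10 kb to 500 kb the bait 2 difference was 2.36 points. The replicate numbers did not pair the bait 1 libraries, and a replicate block gave a difference of 5.91 points (exact sign-flip p = 0.25). That is the smallest p its pairs allow. The block takes deposited libraries by number, so repeat libraries enter it as separate members.

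Depth differed between the libraries. The region held between 3221 and 24766 UMIs per library and the segment between 529 and 3103, so that 3 UMIs amounted to 0.0121% to 0.0931% of the region. For bait 2, the ESC samples with 3221 and 3609 region UMIs had shares of 20.7% and 21.5%, and the ESC sample with 7685 had 19.4%, beside 16.2% in the NSC sample with 6040. For the CTCF bait, the ESC samples differed 5.78-fold in region UMIs and had shares of 12.5% and 12.4%. For bait 1, the ESC sample with a mean of 5055 region UMIs per library had 20.7%, and that with 10036 had 18.7%. The bait 1 NSC samples with 6261 and 4293 had 14.2% and 13.8%.

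The size of the difference depended on the denominator. Region UMIs were themselves a larger part of all UMIs over 10 kb from the bait in ESC. The means were 47.2% against 25.6% (bait 1), 48.0% against 32.0% (bait 2) and 57.6% against 43.0% (CTCF bait). The ESC samples had 38.2% and 56.1% for bait 1, 36.9%, 51.6% and 55.7% for bait 2 and 50.3% and 64.8% for the CTCF bait. The bait 1 NSC samples had 27.5% and 23.8%, and the other baits had 1 NSC sample each. Relative to all those UMIs, contacts on other chromosomes included, the segment held 9.37% in ESC and 3.59% in NSC for bait 1, a 2.61-fold difference. For bait 2 it held 9.93% and 5.19%, a 1.91-fold difference, and for the CTCF bait 7.16% and 4.18%, a 1.71-fold difference. The part that contacts with other chromosomes play in the segment share was not tested.

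Read per length, the segment held more contacts than an even spread over the region, with 1 exception. An even spread takes no account of the fall of contacts with distance, so this does not show enrichment. At the same distances on the other side of the bait, the density per 20 kb was 2.60% in ESC and 2.34% in NSC for bait 1. It was 4.16% and 3.40% for bait 2, both above the segment, and 0.445% and 0.456% for the CTCF bait, below it. An even spread would put 1.01% of region UMIs in each 20 kb. From bait 1 the segment held 1.97% per 20 kb in ESC and 1.40% in NSC, and from bait 2 it held 2.05% and 1.62%. Seen from the CTCF bait, the farthest of them, it held 1.24% in ESC and 0.974% in NSC, so that only the NSC value lay below the even spread.

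The rest of Stag1 lies on both sides of the segment and was compared with it. The stretch of the gene before the segment, which contains baits 1 and 2 and was read outside 10 kb from the bait, held 7.76% per 20 kb in ESC and 6.56% in NSC for bait 1, and 8.49% and 5.71% for bait 2. The stretch after the segment, which holds the last exons, had 1.53% and 1.23% for bait 1, and 1.53% and 1.46% for bait 2. From these baits the density thus fell along the gene in both cell types. From the CTCF bait the order was different, with 1.44%, 1.24% and 2.32% per 20 kb before, in and after the segment in ESC, and 2.05%, 0.974% and 1.30% in NSC. In both cell types the segment was the stretch of Stag1 with the lowest density from the CTCF bait. The ratio of ESC to NSC from that bait was 0.702 before the segment, 1.28 in it and 1.79 after it, a description that rests on 1 NSC library.

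**Figure D2:**
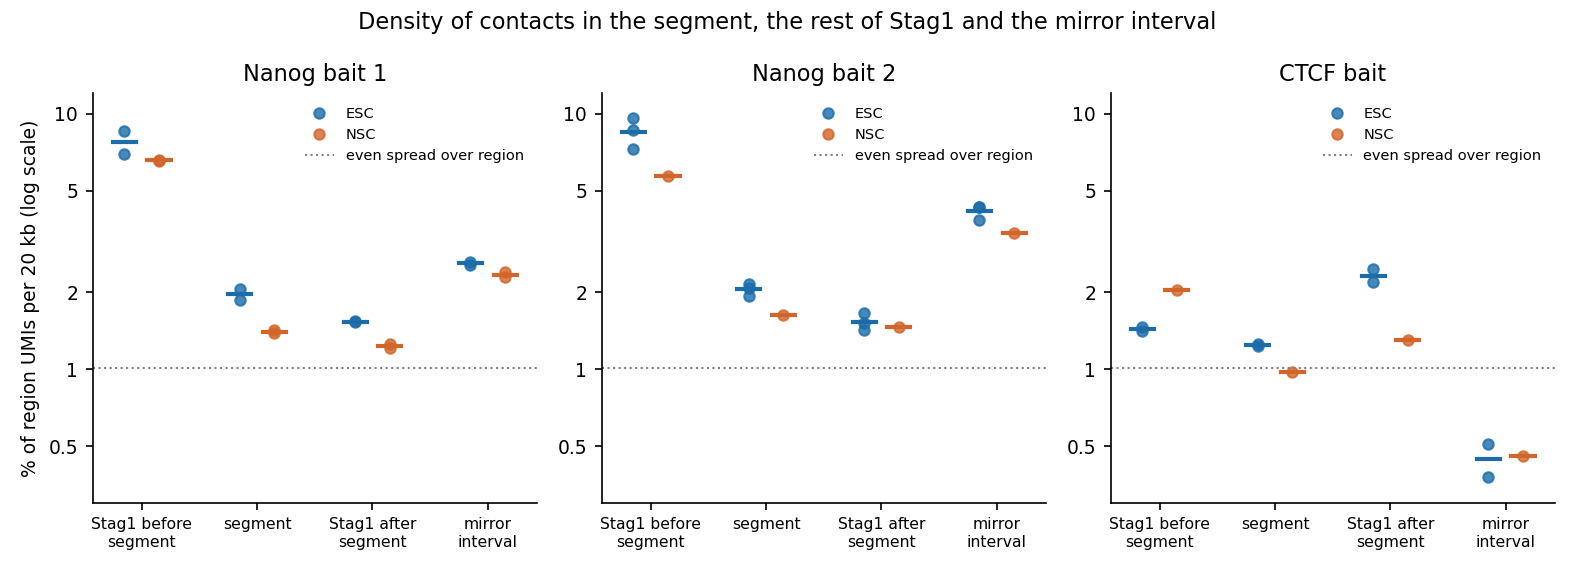
Percentage of region UMIs per 20 kb (log scale) in Stag1 before the segment, in the segment, in Stag1 after it, and in the mirror interval at the same distances on the other side of the bait. Points are samples (repeat libraries averaged), bars are group means and the dotted line is an even spread of 1.01%. In the segment the ESC points lie above the NSC points at each bait.

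Within Stag1, a difference between the cell types in the segment's part did not pass the test. The segment took 45.1% ± 0.627 (SD, n = 2) of the Stag1 UMIs in ESC and 41.2% ± 0.854 (SD, n = 2) in NSC from bait 1. From bait 2 it took 44.6% ± 1.68 (SD, n = 3) in ESC and 45.7% in NSC, and from the CTCF bait 43.7% ± 1.58 (SD, n = 2) and 43.2%. Averaged over the baits the values were 44.5% and 43.4%, a difference of 1.12 points (exact permutation p = 0.333, adjusted p = 0.444). It was 0.654 points with each end counted once and 0.015 points with borders moved 20 kb outwards. The groups overlapped at bait 2 and at the CTCF bait. For bait 1 both ESC samples (44.7% and 45.5%) were above both NSC samples (40.6% and 41.8%).

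The mirror interval is matched for distance, because it lies as far from the bait on the other side. From bait 1 the segment held 0.709 and 0.806 UMIs per UMI of the mirror interval in the ESC samples and 0.592 and 0.604 in the NSC samples. From bait 2 the ratios were 0.478, 0.497 and 0.504 in ESC and 0.478 in NSC, so this pair of groups almost touched. With the CTCF bait, whose mirror interval lies outside Stag1, the ratios were 2.45 and 3.27 in ESC and 2.14 in NSC. All ESC samples were above all NSC samples at each bait, but the mean difference of 0.26 on the log2 scale did not pass the test (exact permutation p = 0.0694, adjusted p = 0.139). With each end counted once it was 0.11 (exact p = 0.694). With all UMIs counted, it was 0.33 without ESC replicate 1 of the CTCF bait (exact p = 0.0417), 0.19 without ESC replicate 2 of that bait (exact p = 0.0417) and 0.29 without the bait 1 ESC sample of replicates 1 and 4 (exact p = 0.0278). The other 12 leave-outs had an exact p of 0.0556 to 0.0833, and none of these p-values is adjusted over the 4 measures. The mirror intervals of baits 1 and 2 hold the CTCF bait's surroundings and, for bait 2, part of Stag1, so they are matched in distance only.

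Contacts in the segment were denser toward the baits in both cell types. The part nearer the baits, from 100660001 to 100760000, held 63.7% ± 2.07 (SD, n = 2) of the segment's bait 1 UMIs in ESC, beside 62.5% ± 0.582 (SD, n = 2) in NSC. From bait 2 it held 66.0% ± 1.503 (SD, n = 3) and 64.1%, and from the CTCF bait 52.7% ± 0.0810 (SD, n = 2) and 53.9%. The mean over baits was 60.8% in ESC and 60.2% in NSC, and the difference of 0.627 points did not pass the test (exact permutation p = 0.444, adjusted p = 0.444). It turned to -0.212 points when each end was counted once and to -0.621 points when the borders were moved 20 kb outwards.

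Split into 10 windows of 20 kb, the segment fell from its near border to its far border. From bait 1 the window at the near border held 3.44% of region UMIs in ESC and 2.52% in NSC, and the window at the far border held 1.19% and 0.812%. From bait 2 these values were 4.23% and 3.33% at the near border and 1.15% and 0.795% at the far border. The profile from the CTCF bait was flatter, from 1.49% to 1.18% in ESC and from 1.31% to 0.781% in NSC. The highest window was the one at the near border in each of the 6 groups.

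**Figure D3:**
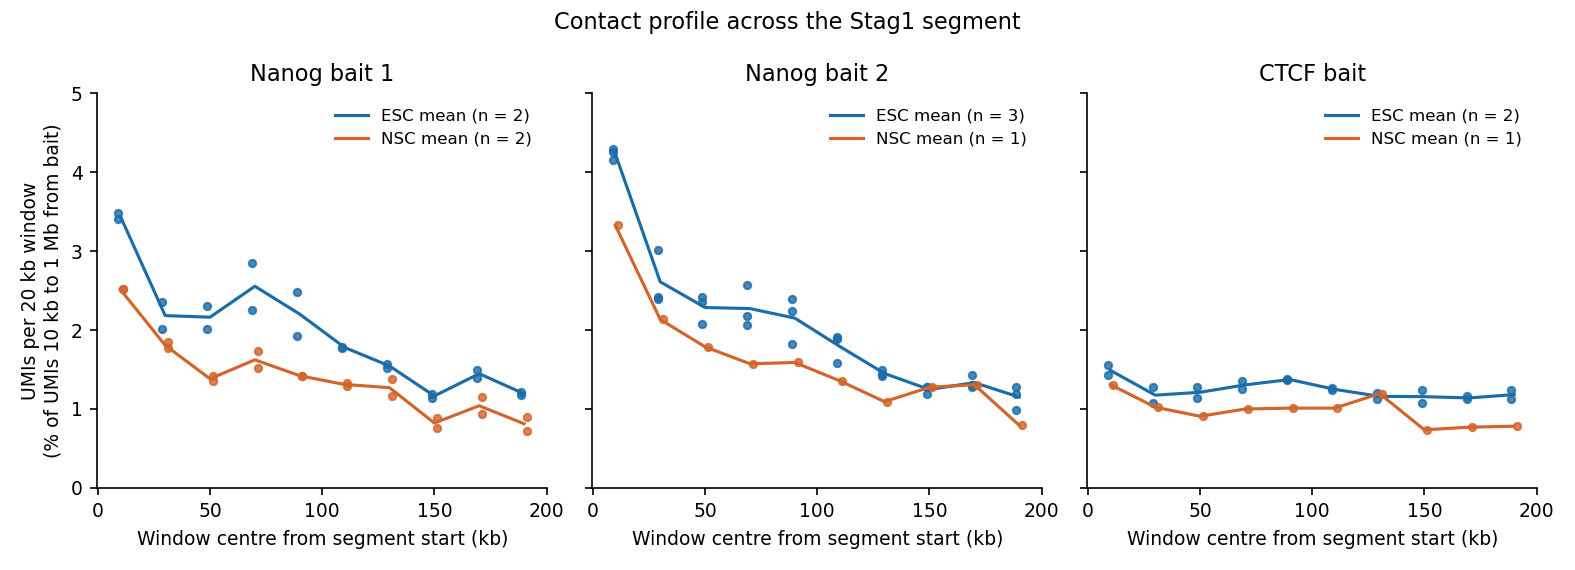
Percentage of region UMIs in each 20 kb window of the segment against the distance of the window's centre from the segment's near border, for each bait. Points are samples (repeat libraries averaged) and lines group means. The ESC line lies above the NSC line in 10 windows for bait 1, in 9 for bait 2 and in 9 for the CTCF bait.

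Every ESC sample was above every NSC sample in 10 of 10 segment windows for bait 1, where 23.8% of the 84 windows tested were so ordered. For bait 2 this held in 8 of 10 segment windows, against 14.3% of all windows, and for the CTCF bait in 9 of 10, against 31% of all windows. These windows share libraries and neighbouring fragments and are not independent.

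Tested with edgeR's quasi-likelihood test over all 84 windows (5 residual degrees of freedom), 8 of the 10 segment windows were higher in ESC from bait 1 and 0 were higher in NSC. Over all windows tested, 15.5% were called higher in ESC from bait 1. With each end counted once, 0 of 84 windows were called from bait 1. With windows of 10 kb, 0 of 20 in the segment and 2 of 171 in all were called. For bait 2, 0 of 10 segment windows were called, 6 had an unadjusted p under 0.05 (31 of 84 over all windows, in either direction), and 2.38% of all windows were called higher in ESC. DESeq2, which scaled the counts by its own size factors and not by region UMIs, called 8 of 10 there. It called 11 of 84 windows tested (13.1%), all of them higher in ESC. With the CTCF bait, 3 of 10 were called, all higher in ESC, 5 had an unadjusted p under 0.05 (22 of 84 over all windows, in either direction), and 10.7% of all windows were called higher in ESC. For the CTCF bait DESeq2 called 0 segment windows and 4 of 84 windows tested (4.76%), all higher in ESC. Bait 2 and the CTCF bait have 1 NSC library each, so their tests take the spread from the groups with replicates. A test of whether the cell types differed alike at the 3 baits called 0 of 84 windows (0%), with 10 of all windows and 0 segment windows at an unadjusted p under 0.05 and a lowest adjusted p of 0.393 in the segment by edgeR, so no difference between the baits was shown.

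The median log2 fold change (ESC over NSC) of the segment windows was 0.49 for bait 1, 0.37 for bait 2 and 0.36 with the CTCF bait. Over all 84 windows, the medians were -0.44, -0.56 and -0.04, so the fold changes of the segment depend on what the counts are scaled to. With TMM factors the median of all windows moved to -0.02, -0.26 and 0.06 and that of the segment to 0.92, 0.70 and 0.47. With the size factors of DESeq2 the median of all windows was -0.08, 0.03 and 0.18 and that of the segment 0.91, 1.07 and 0.65. The distance between the medians was 0.93, 0.92 and 0.41 under the region totals. TMM, which rescales all windows of a library alike and so leaves this distance nearly as it was, gave 0.94, 0.96 and 0.41. It moved to 0.33, 0.80 and 0.068 with each end counted once, and for bait 2 to 0.53 with linked libraries as a block. With counts taken relative to the 100 kb band of distance from the bait in which each window lies, it was 0.21, 0.12 and 0.11. The band totals include the segment's own UMIs, so that scaling divides out part of a difference shared by the whole segment. Over all windows tested, TMM also changed the calls for bait 1 from 13 higher and 15 lower in ESC to 21 higher and 2 lower. For bait 2 the calls went from 2 higher and 4 lower to 10 higher and 2 lower.

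**Figure D4:**
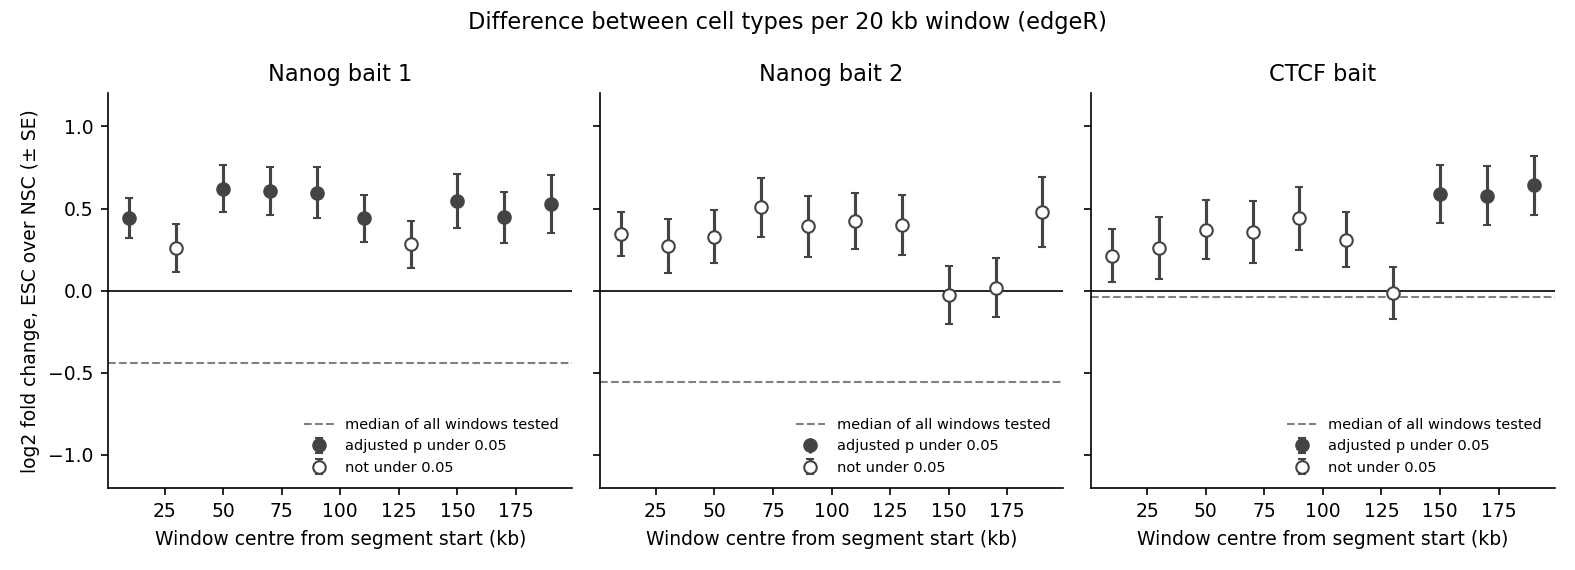
Log2 fold change of ESC over NSC (± SE) in each 20 kb window of the segment from the edgeR fit, against the distance of the window's centre from the near border. Filled points have an adjusted p under 0.05, 8 with bait 1, 0 with bait 2 and 3 with the CTCF bait; the dashed line is the median of the 84 windows tested.

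For bait 1 the highest fold change lay at 100700001 to 100720000, the window of exons 2 and 3. Its shares were 2.02% and 2.31% in the ESC samples and 1.41% and 1.35% in the NSC samples, a log2 fold change of 0.62 ± 0.14 (SE, edgeR adjusted p = 0.00867). The next window, with exon 4, held 2.26% and 2.86% in ESC and 1.73% and 1.51% in NSC (0.60 ± 0.15, edgeR adjusted p = 0.0104). The ESC samples differed more from each other there than in the other bait 1 windows, and both were above the NSC samples. The lowest fold change was in the window of intron 1 at 100680001 to 100700000. It held 2.02% and 2.35% in ESC and 1.84% and 1.77% in NSC (0.26 ± 0.15, edgeR adjusted p = 0.178). Scaling to distance bands turned the sign of this fold change. The other called windows for bait 1, from 100660001 to 100680000, from 100740001 to 100780000 and from 100800001 to 100860000, had log2 fold changes between 0.44 and 0.60.

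The windows of exons 6 and 7 were on the list to be named. The exon 6 window, at 100760001 to 100780000, held 1.77% and 1.79% of region UMIs in the bait 1 ESC samples and 1.29% and 1.33% in the NSC samples. Its log2 fold change was 0.44 ± 0.14 (SE, edgeR adjusted p = 0.0305) for bait 1, 0.42 ± 0.17 for bait 2 (adjusted p = 0.0771) and 0.31 ± 0.17 for the CTCF bait (adjusted p = 0.218). The exon 7 window, at 100780001 to 100800000, which also holds exon 8, had 1.52% and 1.57% in the bait 1 ESC samples and 1.17% and 1.37% in the NSC samples. It was not called from any bait, with 0.28 ± 0.14 for bait 1 (edgeR adjusted p = 0.146), 0.40 ± 0.18 for bait 2 (0.128) and -0.02 ± 0.16 for the CTCF bait (0.981). That last value was the lowest of the segment from the CTCF bait, from shares of 1.199% and 1.12% in ESC and 1.195% in NSC. It was above 0 with TMM factors (0.07).

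For bait 2 the highest fold change was in the window of exon 4, at 100720001 to 100740000. It held 2.07%, 2.17% and 2.58% in ESC and 1.57% in NSC (0.51 ± 0.18, edgeR adjusted p = 0.0635). Scaling to distance bands turned the sign of this fold change. The lowest fold change was in the window of exon 9, at 100800001 to 100820000. That window held 1.28%, 1.27% and 1.19% in ESC and 1.27% in NSC (-0.03 ± 0.18, edgeR adjusted p = 0.953), and TMM turned its sign (0.28). Read with the CTCF bait, the same window held 1.07% and 1.24% in ESC and 0.735% in NSC and was called higher in ESC (0.59 ± 0.18, edgeR adjusted p = 0.0249). In this window the test that the baits differ gave an unadjusted p of 0.0514 and an adjusted p of 0.393 (edgeR) over the 3 baits jointly, and bait 2 was not tested against the CTCF bait alone.

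The 3 windows called from the CTCF bait were neighbours at the far border, from 100800001 to 100860000, and carry exons 9 to 13. The last of them held 1.24% and 1.12% in ESC and 0.781% in NSC, with the highest fold change of the segment from this bait (0.64 ± 0.18, edgeR adjusted p = 0.0150). The NSC library fell from 1.19% in the exon 7 window to 0.735% in the next, while the ESC samples moved from 1.199% to 1.07% and from 1.12% to 1.24%. All 3 windows rest on 1 NSC library, and 1 segment window was called with linked libraries as a block. Without ESC replicate 1 of the CTCF bait 1 segment window was called, among 10 of 84 windows tested, and without ESC replicate 2 there were 2, among 9 of 84. With every sample the calls over all windows were also 10.

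The bait 1 calls also rest on few samples. Segment windows called fell to 0 without either NSC sample, to 1 without the ESC sample of replicates 2 and 3 and to 3 without that of replicates 1 and 4. Over all 84 windows the calls, 28 with every sample, fell as well, to 0, to 4 and to 13. Without bait 2 ESC replicate 1, the linked and deepest of its group, 5 segment windows were called for bait 2, among 32 of 84 windows tested, of which 8 were higher in ESC and 24 in NSC. With window counts taken relative to their own 100 kb band of distance, which includes the segment's own UMIs, 0 segment windows were called from any bait. Over all windows tested the calls were 1, 0 and 3 of 84 for bait 1, bait 2 and the CTCF bait. The median log2 fold changes of the segment were then 0.25, 0.11 and 0.10.

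How often an end of the segment was seen varied with its fragment. Of the 802 possible ends, 53 were seen in no library, and their fragments had a median length of 35 bp against 329 bp for the ends that were seen. In the 50 bp next to the cut, unseen ends had a mean of 70.2% repeat-masked bases and seen ends 41.9%. With the ends in 4 bins of fragment length, the mean of their summed UMIs rose from 9.29 for 11 to 130 bp to 30.01 for 683 to 3165 bp.

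**Figure D5:**
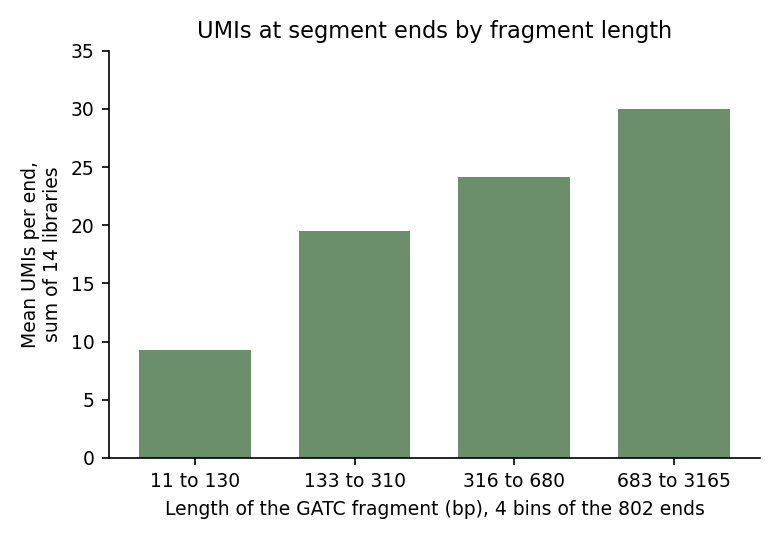
Mean UMIs per segment end, summed over the 14 libraries, in 4 bins of the 802 possible ends by the length of their GATC fragment. The bars rise from 9.29 UMIs for the shortest fragments (11 to 130 bp) to 30.01 UMIs for the longest (683 to 3165 bp).

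The contacts were spread over many ends. The 10% of ends with the most UMIs held 20.9% of the 16613 segment UMIs, and ends on the left and right of the cut sites held 8358 and 8255. In single libraries, 391 to 704 segment ends were seen, of which 10.7% to 72.9% carried a single UMI. Over all libraries, 743 ends were seen in ESC and 725 in NSC. The 719 ends seen in both made up 96.8% of the ESC ends and 99.2% of the NSC ends. Within a bait, the ends seen in both made up 87.6% (bait 1), 77.6% (bait 2) and 71.4% (CTCF bait) of the ESC ends and 98.3%, 97.3% and 97.9% of the NSC ends, with unequal numbers of libraries per cell type.

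Exonic fragments held a small part of the segment's contacts. The fragments that overlap exons 2 to 13 carry 30 of the 802 possible ends (3.74%). They held 4.77% (n = 2) of the segment UMIs in ESC and 5.71% (n = 2) in NSC from bait 1, and 3.77% (n = 3) and 3.98% (n = 1) from bait 2. The CTCF bait values were 5.49% (n = 2) and 4.48% (n = 1). These differences had no common direction over the baits and were not tested.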

How the data were processed

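UMI-4C libraries were analysed from the deposited counts, 1 file per library, in which the authors give a whole-number UMI count for each pair of fragment ends, not normalised. Per the submitters' processing notes, Bowtie2 and the build mm10 (GRCm38) were used. The rule for collapsing UMIs and the filters are not given in the sources used here. The bait was the commonest end in each file, groups and replicate numbers came from the sample titles, and contacts under 10 kb from the bait were excluded, as the share is defined from that distance outwards. Libraries sharing at least 50% of ends on other chromosomes were averaged as 1 sample (3 pairs), and those sharing at least 1% were called linked.

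Depth was 7172 to 51412 UMIs per library. Wilson intervals (95%) and the 3-UMI floor cover counting error only. Shares were compared by two-sided exact permutation tests, and 20 kb windows by the quasi-likelihood test of edgeR 4.0.16 (R 4.3.3). The windows were the 84 lying wholly within the region of all 3 baits, and each passed the minimum of 10 UMIs. A fit of 1 bait alone had 97 windows. The fit used averaged counts rounded to whole numbers, with region UMIs as library size and Benjamini-Hochberg adjustment at 0.05. DESeq2 1.42.0 and the other alternatives are given in the closing section. Genes came from GENCODE M21 and sequences from the RefSeq GRCm38.p6 assembly. Named windows were those past the threshold, those with the highest and lowest fold change per bait, and those of exons 6 and 7. The members, windows and lists were chosen with earlier results of these data known. The paired check, the correlation of deviations of same-numbered bait 1 libraries over 97 windows, gave r of -0.306, -0.187 and 0.0016, so no block was used.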

Additional observations from a re-analysis of the deposited data

Results flagged for a closer look

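Pairs that carried another fragment end within 1 kb of the bait end, in place of the bait end itself, were used in no comparison. They also reached the segment, with 107 of 633 region UMIs in bait 1 ESC (16.9%, 95% Wilson interval 14.2% to 20.02%) and 85 of 555 in bait 1 NSC (15.3%, 12.6% to 18.5%). For bait 2 they gave 7 of 50 in ESC (14%, 6.95% to 26.2%) and 6 of 28 in NSC (21.4%, 10.2% to 39.5%). These counts sum all deposited libraries, so repeat libraries of bait 1 enter with both members and the intervals for bait 1 are too narrow. They stand here as signal in data that the report did not use, and what these ends are is not stated in the labels. The CTCF bait had 1 such region UMI, outside the segment.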

How the results depend on the processing

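The ESC share of the segment was above the NSC share at each bait in the means under all alternatives run, but with each end counted once the NSC library of the CTCF bait lay between its ESC libraries. Over the baits, the difference of 4.22 points lay between 3.89 and 4.56 when 1 sample was left out. Its exact p of 0.0139, before adjustment over the 4 measures (0.0556 after it), rose to 0.0556 with each end counted once (3.65 points) and to 0.125 with closest linked libraries only (3.88 points). With 1 sample left out, single baits ranged from 4.67 to 6.68 (bait 1), 3.82 to 4.85 (bait 2) and 2.61 to 2.79 (CTCF bait), and over the other alternatives from 3.97 to 7.03, 2.36 to 5.60 and 1.39 to 2.97. With each deposited library as a replicate, which counts repeat libraries as separate samples, bait 1 gave 5.61 points (exact permutation p = 0.0286) and the mirror difference was 0.27 (exact p = 0.0119). The mirror difference was 0.11 with each end counted once (exact p = 0.694). Leaving out 1 sample gave mirror differences of 0.19 to 0.33, Stag1 parts of 0.749 to 1.49 points and near-border parts of 0.138 to 1.12 points. The Stag1 part was 0.654 with each end counted once and 0.015 with borders 20 kb outwards. The near-border difference was -0.212 with each end counted once and -0.621 with borders 20 kb outwards.

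Segment windows called for bait 1 (8) were 0 with each end counted once (0 of 84 over all windows), 0 of 20 with 10 kb windows (2 of 171), 5 of 5 with 40 kb windows (18 of 40), 0 with distance bands (1 of 84), 10 with the replicate block, which shares numbers and no known pairing and called 55 of 97 windows in all (16 higher in ESC, 39 in NSC), and 0 to 8 when 1 sample was left out. For bait 2 (0) they were 2 with each library as a replicate (21 of 84 over all windows, 5 higher in ESC), 7 with TMM (12 of 84), 8 with DESeq2 (11 of 84), 3 of 5 with 40 kb windows (14 of 40, 4 higher in ESC) and 0 to 5 in leave-outs. For the CTCF bait (3) they were 1 with linked libraries as a block (8 of 84 over all windows) and 0 with all UMIs as library size (6 of 84), DESeq2 (4 of 84), each end counted once (0 of 84), 10 kb windows (5 of 171) or distance bands (3 of 84), and 1 to 3 in leave-outs. The interaction gave 0 segment windows in each fit that held it, and over all windows 4 of 40 windows with 40 kb windows and 0 to 3 of 84 when 1 sample was left out. It was not run with DESeq2, the fits for each bait alone, the replicate block (bait 1 only) or without a single NSC library. The causes were not tested.

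Named windows that turned were few. With distance bands the bait 1 window from 100680001 gave -0.020 and the bait 2 window from 100720001 gave -0.0051. The bait 2 window from 100800001 (-0.03) gave 0.00043 with linked libraries as a block, 0.28 with TMM, 0.42 with all UMIs, 0.65 with DESeq2, 0.17 with each end once and 0.089 with bands. The CTCF bait window from 100780001 (-0.02) gave 0.071 with TMM, 0.33 with all UMIs, 0.22 with DESeq2 and between -0.092 and 0.0056 with 1 sample left out, above 0 only without ESC replicate 2. Depth limits single ends, which carry few UMIs, and the single NSC libraries of 2 baits carry no replicate check.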
